A study of Saccharomyces cerevisiae with 24 samples.

Results

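The H2B-K123R strain of budding yeast was compared with an untagged wild type, on the sense and the antisense strand of every gene, in 6 of the 24 RNA sequencing libraries of a study of histone H2B ubiquitylation. The libraries were chosen by their column headers, 3 for H2B-K123R and 3 for the untagged wild type, called WT untagged below. H2B-K123R is strain KY3781, in which both genes for histone H2B, htb1 and htb2, carry K123R, arginine in place of a lysine near the end of the protein. WT untagged is strain KY669. Both are MATa haploids that carry his3Δ200, lys2-128Δ, ura3-52 and trp1Δ63, so neither strain has an intact copy of those 4 marker genes. Each genotype is represented by 1 strain, and its 3 libraries are biological replicates of that strain, so p-values describe the spread between cultures and not between independently made strains. Cells grew in rich glucose medium (YPD) to log phase and were mixed with Kluyveromyces lactis cells before RNA was extracted, rRNA was depleted and strand-specific libraries were made. Other groups were used beside single results. They were WT tagged, a wild type with 3xHA-RTF1 and RAD6-13xMYC::KanMX, and rad6Δ untagged, a strain without tags in which rad6Δ::KanMX replaces RAD6, with 3 libraries each and the same MATa and marker alleles.

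This lysine of yeast H2B lies in the last helix of the histone and receives a single ubiquitin from the conjugating enzyme Rad6 and the ligase Bre1 while RNA polymerase II transcribes. The Paf1 complex, through its Rtf1 subunit, recruits this activity, and Ubp8 and Ubp10 remove the mark. The ubiquitin is needed for H3K4 methylation by COMPASS and H3K79 methylation by Dot1, and it helps the histone chaperone FACT to keep nucleosomes in place behind the polymerase. An arginine at this position cannot carry the ubiquitin, while Rad6 remains and can act on its other substrates.

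The codons that the strain changes are given in their wild-type form, to mark where the substitution lies. Both come from RefSeq on build R64 and end at the stop codon, with the lysine codon in capitals and the residue counted from the one after the initial methionine. The HTB1 stretch lies at chrIV:914317-914367 on the minus strand and the HTB2 stretch at chrII:236837-236887 on the plus strand, both inside the coding exon.
HTB1: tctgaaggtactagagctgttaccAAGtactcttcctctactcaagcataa
HTB2: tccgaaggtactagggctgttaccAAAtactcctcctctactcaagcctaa
Counts per gene cannot show whether the codon was changed. HTB2 had 36.2, 48.0 and 56.3 CPM (sense counts scaled to the size of the library) in the 3 H2B-K123R libraries and 75.3, 59.6 and 64.9 CPM in WT untagged. It fell by 0.51 on the log2 scale (SE 0.16, adjusted p = 0.0200), and no H2B-K123R library reached the lowest wild-type value. HTB1 had 7.49, 8.63 and 8.70 CPM against 12.4, 9.57 and 8.57 CPM, a log2 difference of -0.30 (SE 0.28) that did not pass the test (adjusted p = 0.463). Of the 8 core histone genes 4 fell and none rose (over all genes 12.3% fell), the others being HTA1 (-0.65), HTA2 (-0.42) and HHF2 (-0.56), which have near-identical copies among which reads may be split. The count was 2 without H2B-K123R replicate 1, without H2B-K123R replicate 3 or against WT tagged, and 3 without any other library.

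Adjusted p-values throughout are Benjamini-Hochberg values of edgeR's quasi-likelihood test over all genes tested on that strand, and a gene is said to have risen or fallen only at an adjusted p under 0.05. Sense totals of the 6 libraries ran from 7913459 to 9356243 counts, K. lactis totals from 1282462 to 1512439, and between the same libraries 3 of 4599 K. lactis genes (0.0652%) were called, and 234 had a p under 0.05 before adjustment. A fit of only these 6 libraries called 30, with 410 before adjustment. S. cerevisiae sense counts exceeded those of K. lactis by a log2 ratio of 2.56 ± 0.05 in H2B-K123R and 2.69 ± 0.08 in WT untagged (SD, n = 3). The difference was -0.13, which an exact two-sided permutation test did not separate (p = 0.2, the smallest possible being 0.1). Libraries of a group were not equally alike. The chi-square per degree of freedom over genes was 5.53 between H2B-K123R replicates 1 and 2 but 30.7 and 31.9 between each of them and replicate 3, and it was highest in WT untagged between replicates 1 and 2, at 18.6. MATa identity was checked by its markers. STE2, the receptor for alpha-factor made by MATa cells, lay between 551 and 1180 CPM in all 6 libraries. MF(ALPHA)2, which MATa cells do not use, was at 1.43 CPM or lower in all of them. Of the markers, TRP1 had 6.94, 10.1 and 7.62 CPM against 2.698, 1.87 and 2.20 CPM and rose by 1.86, URA3 rose by 0.58, LYS2 did not pass the test (0.14), and HIS3 had 0 counts in the 6 libraries.

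On the sense strand 5790 genes were tested and 1521 (26.3%) were called, 809 risen (14%) and 712 fallen (12.3%). Of them 342 (5.91%) had changed at least 2-fold, and the median change was -0.01 on the log2 scale. In 47.0% of the genes the libraries of the groups did not overlap. As these are bulk samples, fewer cells that express a gene and less RNA per cell cannot be told apart. Scaling to K. lactis counts gave 927 risen and 479 fallen, so that 65.9% of the calls were rises in place of 53.2%. Rises were most frequent among weakly expressed genes. In the quintile of genes with the lowest CPM per kb 21.5% rose and 4.76% fell, while in the highest quintile 12.5% rose and 20.2% fell. The summed sense level of 135 genes under 1 CPM was 79.5 ± 6.54 CPM in H2B-K123R and 50.3 ± 4.96 CPM in WT untagged (SD, n = 3), with an exact permutation p of 0.1, the smallest possible.

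**Figure D1:**
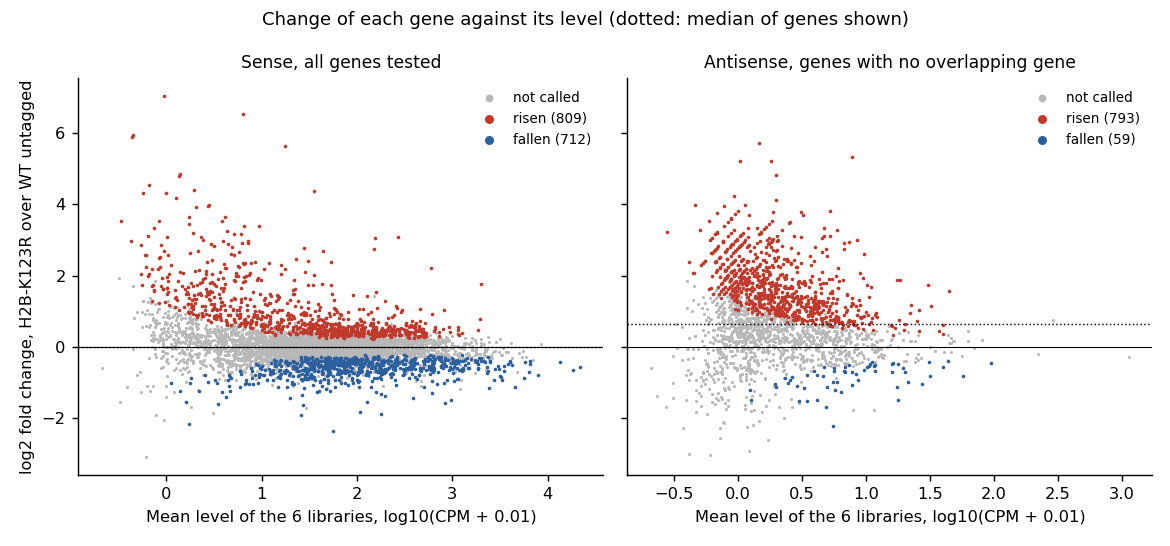
Log2 fold change of H2B-K123R over WT untagged (vertical axis) against the mean level of the 6 libraries (horizontal axis, log10 of CPM + 0.01), with 1 point per gene tested. On the left, 809 sense rises and 712 falls lie around a median of -0.01, and on the right, for antisense counts of genes with no overlapping gene, 793 rises outnumber 59 falls around a median of 0.655 (dotted lines).

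Genes of spore formation rose together. Meiosis and spore genes are switched on in starving diploids by the regulators Ime1 and Ndt80, and are nearly silent in haploids that grow on glucose. Of 47 tested members of this list, 31 rose and none fell, with a median of 0.90, against 14% risen and a median of -0.01 over all genes. Among the 25 tested genes of spore formation 22 rose, with a median of 1.41, and 20 to 22 rose when any 1 of the 6 libraries was left out. Of the whole list 24 rose and 1 fell against WT tagged.

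SPR28, a septin of the spore membrane, had 7.60, 6.45 and 7.37 CPM in H2B-K123R and 0.368, 0.934 and 0.490 CPM in WT untagged, a rise of 3.54 (SE 0.26, adjusted p = 2.45e-09). SPO74, needed for the spindle pole body to start the spore membrane, had 8.70, 8.06 and 10.6 CPM against 1.23, 1.05 and 0.734 CPM and rose by 3.17 (SE 0.31, adjusted p = 1.4e-07). All mutant libraries lay far above all wild-type libraries for both genes. OSW1, a spore wall gene, had 33 counts in the 3 H2B-K123R libraries together and 1 in WT untagged, a ratio of 31.5 with a 95% counting interval of 5.28 to 1283. OSW2 rose by 1.96, LOH1 by 2.79, the sporulation glucoamylase gene SGA1 by 2.17 and the septin gene SPR3 by 2.39. Of 16 tested genes for meiotic chromosomes and recombination 5 rose, among them REC8, the meiotic cohesin (8.04, 8.75 and 9.19 CPM against 1.96, 2.33 and 2.20 CPM, a rise of 1.99). The regulators NDT80 (0.60), IME2 (0.34), IME4 (1.96) and RIM4 (1.75) rose, 4 of 6 tested. Only 1 of the 6 regulators rose without H2B-K123R replicate 1, without WT untagged replicate 1 or against WT tagged, 2 rose without H2B-K123R replicate 3 or either other WT untagged replicate, and 3 without H2B-K123R replicate 2.

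The windows from 250 bases before to 50 bases into the coding sequence of SPR28 and SPO74 are printed because Ndt80 recognises a middle sporulation element of the form GNCACAAA, which stands in capitals on whichever strand it was found. They were chosen for print after the matches were seen. The windows lie at chrIV:905003-905302 and chrVII:185345-185644 of R64, both read 5′ to 3′ on the minus strand.
SPR28: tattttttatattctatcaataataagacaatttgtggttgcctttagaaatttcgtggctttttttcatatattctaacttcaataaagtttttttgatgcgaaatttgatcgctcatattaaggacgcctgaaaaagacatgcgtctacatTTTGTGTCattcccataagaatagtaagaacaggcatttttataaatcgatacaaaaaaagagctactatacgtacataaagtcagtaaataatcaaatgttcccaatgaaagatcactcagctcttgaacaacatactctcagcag
SPO74: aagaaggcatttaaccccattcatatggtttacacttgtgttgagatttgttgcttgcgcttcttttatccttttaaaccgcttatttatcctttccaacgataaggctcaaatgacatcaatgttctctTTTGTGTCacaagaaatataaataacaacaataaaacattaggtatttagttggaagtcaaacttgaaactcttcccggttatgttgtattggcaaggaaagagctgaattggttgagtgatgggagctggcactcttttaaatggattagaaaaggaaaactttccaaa
The element, searched on both strands, was found in 13 of 26 spore formation windows, in 11 of the 22 that belonged to risen genes, and in 257 of all 5896 windows of this length (4.36%). Matches are letters in a window and do not show that Ndt80 was bound.

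Mating genes went the other way. Of the 8 a-specific genes, which make a-factor, its exporter and the alpha-factor receptor, all 8 fell (median -0.90), and 6 to 8 fell without any 1 library. MFA1, which encodes a-factor, had 15.4, 14.4 and 14.99 CPM in H2B-K123R against 49.5, 33.3 and 32.8 CPM, a fall of 1.37 (SE 0.23, adjusted p = 0.000113). BAR1, the secreted protease that destroys alpha-factor, had 456, 438 and 363 CPM against 872, 782 and 774 CPM and fell by 0.95 (SE 0.10, adjusted p = 2.93e-07). The groups did not overlap for either gene. STE2 fell by 0.92, STE6, the a-factor exporter, by 0.64, MFA2 by 0.76, AGA2 by 0.94, ASG7 by 0.87 and AXL1 by 0.50.

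Downstream of the receptor, 16 of 31 genes of the pheromone response fell and 1, the kinesin gene KAR3 (0.40), rose. SST2, which switches the pheromone G protein off and is itself induced by pheromone, had 193, 186 and 245 CPM against 547, 553 and 591 CPM, and fell by 1.44 (SE 0.10, adjusted p = 2.02e-09). The falls reached the G protein subunits GPA1 (-0.66) and STE4 (-0.64), the scaffold STE5 (-0.45), the kinase FUS3 (-0.998) and the transcription factor STE12 (-0.93). Among induced effectors FAR1, which arrests the cell cycle, fell by 0.87, and FIG1 and AGA1 fell by 1.13 and 1.25. FUS1, a cell fusion gene, had 24.8, 23.5 and 18.7 CPM against 53.1, 51.6 and 56.3 CPM, a fall of 1.26, and PRM1, a membrane fusion gene, had 30.6, 29.6 and 26.5 CPM against 68.5, 60.0 and 69.6 CPM, a fall of 1.19. Against WT tagged the same lists gave 8 falls of 8 and 16 falls of 31. Of the alpha-specific genes 3 of 8 could be tested, and MF(ALPHA)2 (1.74) and STE3 (0.93) rose from low levels.

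PRM1 and FUS1 carry the pheromone response element to which Ste12 binds, TGAAACA or its complement TGTTTCA, in capitals in their windows at chrXIV:110667-110966 and chrIII:71553-71852 of R64, both on the plus strand.
PRM1: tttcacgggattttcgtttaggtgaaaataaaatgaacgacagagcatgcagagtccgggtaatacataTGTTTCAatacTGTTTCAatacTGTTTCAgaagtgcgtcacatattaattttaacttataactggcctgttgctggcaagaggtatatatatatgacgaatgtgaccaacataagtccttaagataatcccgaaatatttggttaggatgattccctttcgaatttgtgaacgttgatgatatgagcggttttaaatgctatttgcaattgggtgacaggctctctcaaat
FUS1: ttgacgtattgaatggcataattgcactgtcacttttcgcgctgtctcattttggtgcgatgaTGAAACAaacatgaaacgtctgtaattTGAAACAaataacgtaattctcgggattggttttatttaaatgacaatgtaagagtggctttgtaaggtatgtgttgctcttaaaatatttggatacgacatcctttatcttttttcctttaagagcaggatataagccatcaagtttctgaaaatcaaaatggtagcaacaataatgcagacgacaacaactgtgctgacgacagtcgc
PRM1 held 3 elements and FUS1 held 2. The element stood in 6 of 8 a-specific windows, in 15 of 31 of the pheromone response list, of which 8 of the 16 fallen genes, and in 429 of all 5896 windows (7.28%).

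**Figure D2:**
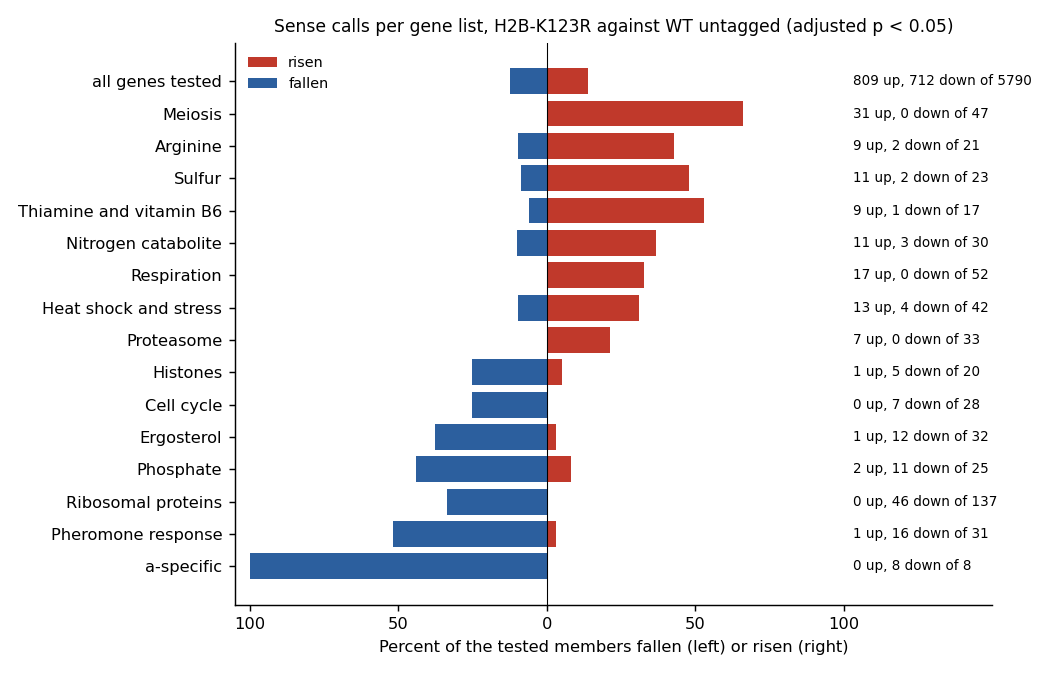
Percent of tested members of each gene list that rose (right, red) or fell (left, blue) on the sense strand in H2B-K123R against WT untagged, with the counts printed beside each bar. Meiosis (31 up, 0 down of 47) and the a-specific genes (0 up, 8 down of 8) lie at the top and the bottom of the 15 lists drawn, with all genes tested (809 up, 712 down of 5790) shown above them.

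Amino acid and vitamin pathways changed by pathway. ARG1, argininosuccinate synthetase, at chrXV:219211-220473 (plus strand), had 502, 478 and 471 CPM in H2B-K123R and 60.2, 60.5 and 51.2 CPM in WT untagged. It rose by 3.08 (SE 0.12, adjusted p = 3.93e-14), and the mutant libraries were nearly level while all of them exceeded every control. Of 9 arginine synthesis genes 6 rose and 1, ARG8, fell by 0.55. ARG3, ornithine carbamoyltransferase, rose by 2.34, ARG4 by 1.06, ARG7 by 0.91 and ARG56 by 0.88. The repressor gene ARG80 fell by 0.84, and PUT1, proline oxidase, rose by 2.09. Against WT untagged the increase did not extend to every amino acid pathway. In the branched-chain pathway 0 of 11 genes rose and 6 fell, in the lysine pathway 0 of 6 rose and 3 fell, and in the histidine pathway 3 of 6 rose and none fell. Against WT tagged these pathways gave 0 rises and 3 falls, 1 and 2, and 3 and 1. There the whole list of 49 amino acid synthesis genes gave 12 rises and 9 falls, so the picture depended on the control.

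Sulfate assimilation and methionine genes gave 11 rises and 2 falls of 23. Without any 1 library there were 7 to 9 rises, with 7 without WT untagged replicate 1 or without WT untagged replicate 3. SUL1, a sulfate permease, had 7.38, 8.86 and 4.71 CPM against 0.736, 0.934 and 0.979 CPM (a rise of 2.97), and STR3, which makes homocysteine from cystathionine, had 44.6, 50.5 and 60.2 CPM against 7.97, 10.2 and 10.9 CPM (a rise of 2.42). SUL2 rose by 1.30, MET2 by 1.25, MET17 by 1.04 and MET14 by 0.95. The S-adenosylmethionine synthetase gene SAM1 (-0.66) and CYS4 (-0.36) fell. All 4 tested SNZ and SNO genes, of vitamin B6 synthesis, rose. SNO1 and SNZ1 form a divergent pair on chromosome XIII. SNO1 had 48.9, 37.6 and 18.1 CPM against 0.613, 0.584 and 0.857 CPM, and SNZ1 had 422, 284 and 130 CPM against 30.9, 33.6 and 35.1 CPM, rises of 5.65 and 3.07. H2B-K123R replicate 3 was the lowest mutant library for both. It lay above every wild-type library, which the rule for naming the 10 largest rises required. Of 13 thiamine genes 5 rose, THI4 by 1.44, THI7 by 1.09 and THI73 by 1.42, and the thiamine-regulated phosphatase gene PHO3 fell by 0.60.

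Nitrogen catabolite genes, which yeast holds down on rich nitrogen, gave 11 rises and 3 falls of 30, against 14% risen and 12.3% fallen over all genes. Without any 1 library there were 8 to 11 rises and 1 to 4 falls, and against WT tagged 10 rises and 6 falls. DAL1, allantoinase, had 11.1, 10.8 and 11.1 CPM against 1.84, 2.33 and 2.33 CPM and rose by 2.34, and the glutamate dehydrogenase genes GDH2 and GDH3 rose by 0.98 and 1.03. The GABA permease gene UGA4 fell by 0.89.

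Of 25 hexose transport genes 5 rose and 2 fell, a share called of 28% against 26.3% of all genes. HXT1, the low-affinity transporter used at high glucose, had 398, 405 and 247 CPM in H2B-K123R and 869, 847 and 886 CPM in WT untagged, and fell by 1.31 (SE 0.23, adjusted p = 0.000337). HXT5, a transporter of slow-growing cells, had 16.2, 14.7 and 4.84 CPM against 0.981, 1.28 and 1.10 CPM and rose by 3.39, HXT10 rose by 2.67, and hexokinase HXK2 fell by 0.62. None of these groups overlapped, which for HXT5 the rule for naming the 10 largest rises required. Of 14 glycolysis genes 10 fell and 2 rose, with falls such as FBA1 (aldolase, -0.66), PFK1 (-0.85) and GPM1 (-0.81), while TDH1 (1.06) and ENO1 (0.40), which have near-identical copies, rose. Against WT tagged 2 of the 14 fell. The alcohol dehydrogenase genes ADH1 (-1.12) and ADH4 (-1.64) fell, and PDC6, a minor pyruvate decarboxylase, rose by 3.25. The citrate synthase gene CIT3 rose by 1.46, and with it 17 of 52 respiratory genes rose and none fell, such as LSC2 (0.67), ATP4 (0.56) and ATP3 (0.52). That count was 6 without H2B-K123R replicate 2, 8 without WT untagged replicate 1 or without WT untagged replicate 3, 11 without H2B-K123R replicate 1 or without WT untagged replicate 2, and 18 without H2B-K123R replicate 3.

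STL1, a glycerol importer induced by osmotic stress, had 113, 158 and 57 counts (12.4, 18.2 and 6.89 CPM) in H2B-K123R and 1 count in each WT untagged library. Its ratio was 104.5, with a 95% counting interval of 35.5 to 509. WT tagged had a mean of 0.748 CPM and WT untagged 0.121 CPM, so the ratio would be smaller against WT tagged. HSP12, a membrane-stabilising stress protein, had 398, 326 and 68.5 CPM against 34.0, 47.0 and 35.9 CPM and rose by 2.76 (SE 0.71), with replicate 3 far below its partners but above the controls. Among 42 genes of heat shock and other stress 13 rose and 4 fell, against 14% risen and 12.3% fallen over all genes. GRE1 rose by 2.59, HSP26 by 1.99 and SSA4 by 0.98, and the ribosome-bound chaperone gene SSB1 fell by 0.94. Against WT tagged 8 of the 42 rose and 2 fell, and of the 25 chaperone genes in this list 2 rose and 1 fell. Replicate 3 was likewise the lowest mutant library for STL1, HXT5, HXT1, PDC6, SNZ1 and SUL1, and for CTT1 it lay within the wild-type range, at 17.4 CPM. Without replicate 3 the stress list gave 14 rises and 2 falls, and it gave 8 rises without H2B-K123R replicate 1.

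Several lists held more falls than rises. Of 137 ribosomal protein genes 46 fell and 0 rose (median -0.34), and 31 to 42 fell without any 1 library. Ergosterol genes gave 12 falls and 1 rise of 32, with ERG5 (-0.97), HMG1 (-0.84, the rate-limiting reductase) and ERG10 (-0.75) among them, and HES1 (0.74) rising. Of 28 cell cycle genes 7 fell and 0 rose, CLN1, a G1 cyclin, from 45.9 ± 3.10 to 25.5 ± 2.27 CPM (SD, n = 3) and CLB6, an S phase cyclin, from 19.8 ± 1.59 to 11.4 ± 2.66 CPM. Of 26 iron genes 8 fell and 2 rose, and 4 fell without WT untagged replicate 3. FET3, the multicopper oxidase of high-affinity iron uptake, had 435, 522 and 314 CPM against 1453, 1013 and 1324 CPM and fell by 1.58 (SE 0.34, adjusted p = 0.00224), and FTR1, its permease partner, fell by 0.71. The ribonucleotide reductase gene RNR1 fell by 1.12 (349, 359 and 248 CPM against 804, 643 and 637 CPM), while the damage-inducible RNR3 (1.71) and HUG1 (1.07) rose. Lists with more rises than falls were the proteasome, with 7 rises of 33 and no fall, and ribosome biogenesis, with 11 and 2 of 81. Over all genes 14% rose and 12.3% fell, so the rises of ribosome biogenesis lay near that share. Ribosome biogenesis gave 3 rises and 3 falls without H2B-K123R replicate 3, while 5 rose without WT untagged replicate 1 and 6 without WT untagged replicate 3.

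The phosphate-starvation genes fell against WT untagged but not against WT tagged. PHO84, the high-affinity phosphate transporter, had 105, 89.5 and 32.0 CPM in H2B-K123R and 429, 191 and 227 CPM in WT untagged, a fall of 1.90 (SE 0.50, adjusted p = 0.00908). The repressible acid phosphatase gene PHO5 fell by 1.82. PHO12 (-2.36) and PHO11 (-1.91), acid phosphatase genes nearly identical to each other, fell too, and VTC3, of vacuolar polyphosphate synthesis, fell by 1.51. WT tagged had a mean of 22.6 CPM of PHO84, 20.97 CPM of PHO5 and 335 CPM of VTC3, all below H2B-K123R. Thus of 25 phosphate genes 11 fell and 2 rose against WT untagged (7 fell without its replicate 1), while 1 fell and 8 rose against WT tagged. The direction in this list depended on which wild type was the control.

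**Figure D3:**
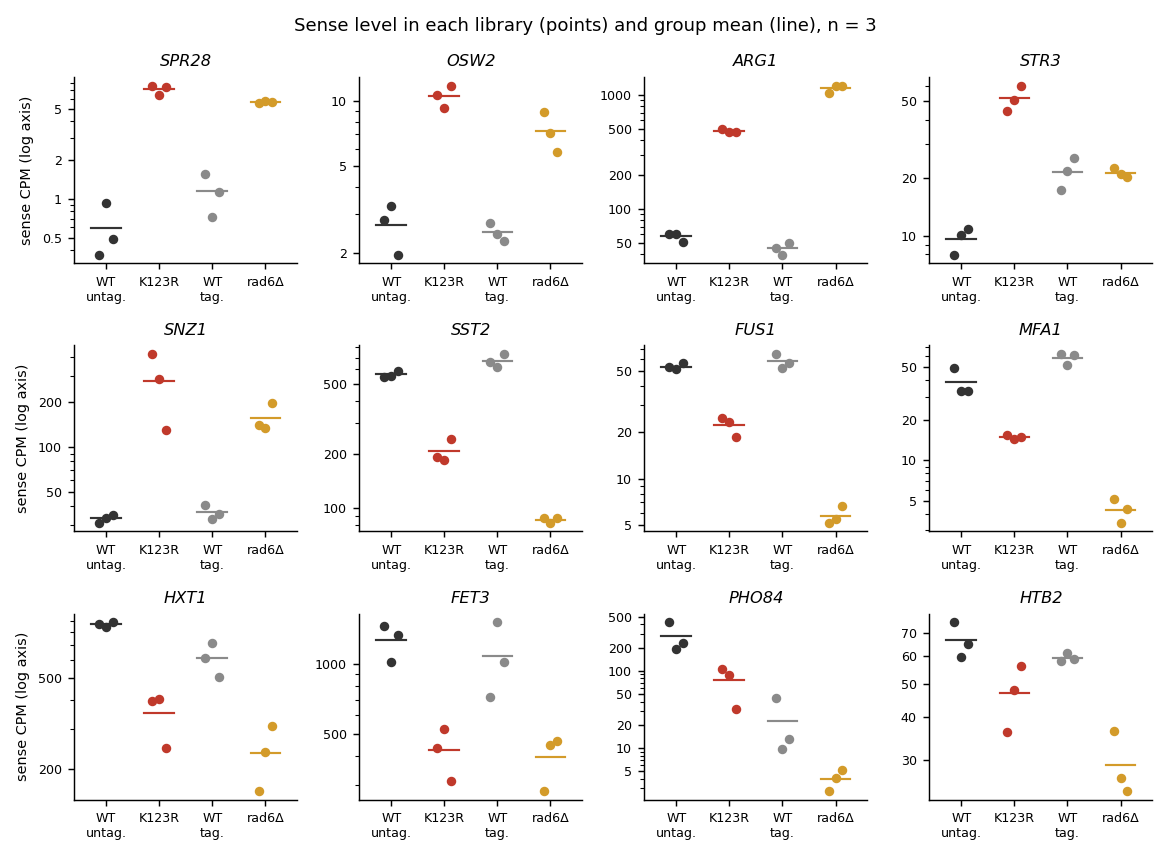
Sense level of 12 genes in each library (points) and the group mean (lines) in WT untagged, H2B-K123R, WT tagged and rad6Δ untagged, on log axes in CPM. SPR28, ARG1 and STR3 lie above both wild types in H2B-K123R and SST2, FUS1 and MFA1 below both, while PHO84 lies below WT untagged and above WT tagged.

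The remaining genes with the largest changes lay outside the lists described above. YNR064C, an epoxide hydrolase, at chrXIV:749136-750008 (minus strand), had 70.4, 76.4 and 58.0 CPM in H2B-K123R against 2.58, 3.62 and 3.67 CPM, a rise of 4.37 (SE 0.21, adjusted p = 2.13e-12). CDA1, a chitin deacetylase of the spore wall, had 18.0, 15.8 and 17.3 CPM against 1.47, 2.10 and 1.22 CPM and rose by 3.39. RTA1 rose by 2.98, MOH1 by 2.92, and YAR073W, which has no R64 annotation, by 3.16. OPT2, an oligopeptide transporter, had 83.2, 86.7 and 98.3 CPM against 16.4, 14.6 and 19.95 CPM and rose by 2.39. Falls beyond the groups above were GCV2, of the glycine cleavage system (71.3, 66.6 and 56.9 CPM against 239, 178 and 149 CPM, -1.54), and GCD7, a subunit of the initiation factor eIF2B (-1.45). HPF1 at 2.91 and MMF1 at -1.39 were the genes just outside the 10 largest rises and falls at a mean of at least 10 CPM.

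Transcripts of the machinery that places and reads the mark were called in 15.4% of the ubiquitylation list and 14.3% of the histone methylation list, against 26.3% of all genes. Of 13 genes for H2B ubiquitylation 1 fell, the deubiquitylase gene UBP8 (15.1, 17.1 and 22.7 CPM against 40.6, 33.7 and 29.6 CPM, -0.92), and 1 rose, CTR9 of the Paf1 complex (0.38). RAD6 had 67.5, 70.1 and 70.4 CPM against 50.6, 62.2 and 54.6 CPM, a difference of 0.31 that did not pass the test (adjusted p = 0.196), and BRE1 differed by 0.01. Among 14 histone methylation genes DOT1 fell by 0.30 and the demethylase gene JHD1 rose by 0.43, and no COMPASS subunit of 8 was called. Each of these 4 calls was lost with some library left out, and none of the ubiquitylation list was called without WT untagged replicate 1, nor of the methylation list without H2B-K123R replicate 1.

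Position along the chromosome separated the sense calls as well. Of 282 genes tested within 30 kb of a chromosome end 66 rose and 29 fell, and within 10 kb 26.6% rose and 14.1% fell, against 14% and 12.3% over all genes. Without any 1 library 55 to 66 rose and 17 to 24 fell, with 17 falls without WT untagged replicate 1. YFR057W, a gene close to a chromosome end, had 49 counts in the 3 H2B-K123R libraries together and 0 in WT untagged, at least 15.6-fold higher over a floor of 3 counts for the group. Against WT tagged the 282 genes gave 54 rises and 41 falls.

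Antisense counts are reads on the strand opposite to a gene. A gene was set apart as overlapping when more than 10% of the antisense counts disappeared in the unstranded table, since such reads can belong to the partner gene, and 83.9% of the antisense counts lay in the 2569 overlapping genes. As a percentage of sense and antisense counts, antisense counts of genes with no overlapping gene were 1.56, 1.65 and 1.78 in the H2B-K123R libraries and 1.12, 1.03 and 1.27 in WT untagged. The groups did not overlap, and the mean difference of 0.520 had an exact two-sided permutation p of 0.1, the smallest that 3 against 3 can give. WT tagged lay between them, at 1.37 ± 0.005 (SD, n = 3). Over all genes, overlapping ones included, the share was 5.68% against 5.52%, and the groups overlapped (exact permutation p = 0.2).

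Of 3741 genes tested on the antisense strand 1235 (33.0%) were called, 1079 risen (28.8%) and 156 fallen (4.17%), of which 870 (23.3%) had changed at least 2-fold, and the libraries of the groups did not overlap for 45.7%. Of the 2080 with no overlapping gene 852 were called (41.0%), 671 of them at least 2-fold (32.3%), and the libraries did not overlap for 51.8%. Of the 852, 793 rose (38.1%) and 59 fell (2.84%), with a median of 0.655. These counts were scaled with the sense totals of the same libraries. TMM factors taken from the antisense table moved the median over all 3741 genes from 0.37 to -0.03 with low counts filtered and -0.15 without, and gave 628 rises and 466 falls, or 540 and 613. With WT tagged as control the genes with no overlapping gene gave 499 rises and 116 falls, median 0.37. Over all genes the excess of rises over falls thus depended on the scaling. Among genes with no overlapping gene the same factors gave 490 rises and 150 falls (median 0.272), or 426 and 193 without the filter (median 0.150).

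**Figure D4:**
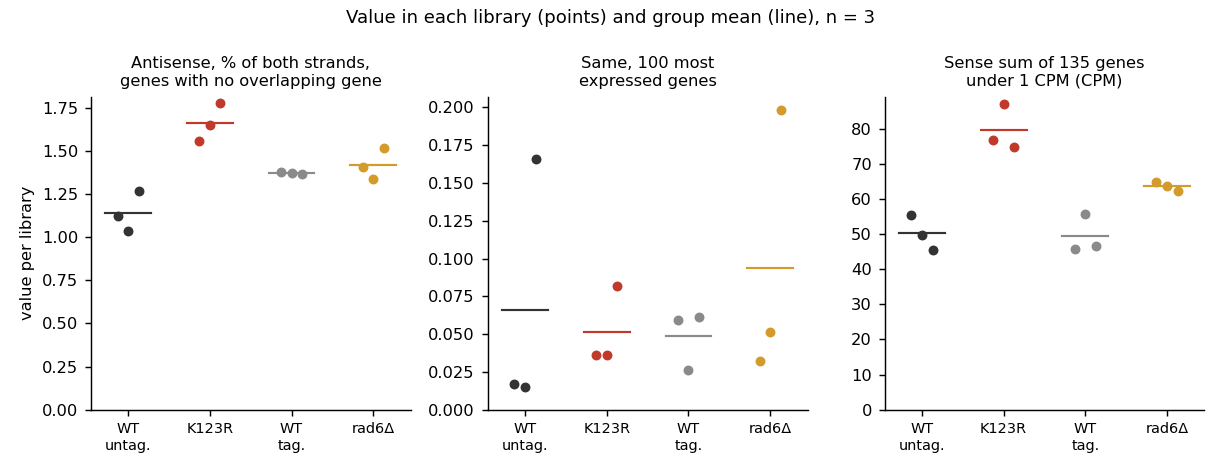
Antisense counts as a percentage of both strands over genes with no overlapping gene (left) and over the 100 most expressed genes (middle), and the summed sense level of 135 genes under 1 CPM (right), for each library (points) with the group mean (line). H2B-K123R lies at 1.56 to 1.78% on the left against 1.03 to 1.27% in WT untagged. In the middle panel WT untagged replicate 3 (0.166%) and rad6Δ untagged replicate 3 (0.198%) stand apart.

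A limit on the antisense values lies in WT untagged replicate 3. Its antisense share over the 100 most expressed genes was 0.166%, against 0.0167% and 0.0149% in its partners and 0.0359%, 0.0362% and 0.0816% in H2B-K123R. Replicate 3 had the highest such share in every group of the study, by differing margins. The share was 0.198% in rad6Δ untagged, against 0.032% and 0.0517%, and 0.0613% in WT tagged, against 0.0591% and 0.026%. What sets replicate 3 apart was not tested. Without WT untagged replicate 3 the genes with no overlapping gene gave 755 rises and 40 falls, with a median of 0.94. Ribosomal protein genes, the most expressed, had a median antisense difference of -1.002 with 7 rises and 0 falls of 86, and that median was 1.48 without this library.

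The 6 largest antisense rises at a mean of at least 2 CPM started near 0 in wild type. CLN3, the most upstream G1 cyclin, at chrI:65778-67520 (minus strand), had 3.08, 3.11 and 2.42 antisense CPM in H2B-K123R and 0, 0 and 0.122 CPM in WT untagged, or 75 counts against 1, a ratio of 71.7 with a 95% counting interval of 12.5 to 2869. Its sense level was not called (-0.16). PUL4, at chrXIV:746943-748766 (plus strand), had 16.9, 14.2 and 14.5 antisense CPM against 0.123, 0.233 and 0.734 CPM and rose by 5.34 (SE 0.34, adjusted p = 7.42e-12). It lies 369 bp from the convergent YNR064C, whose own transcript rose by 4.37, and whether reads from YNR064C reach it was not tested. ESL2 (92 counts against 2, a ratio of 44.0, interval 11.8 to 369), ZRG8 (53 against 1, 50.7, 8.71 to 2038) and NMD5, an importin (99 against 3, 31.5, 10.5 to 156), followed, and SWI1, a remodeling subunit, rose by 4.12.

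Antisense falls were fewer than rises with sense scaling. CLD1, a cardiolipin phospholipase, had 1.43, 1.61 and 2.78 antisense CPM against 10.9, 7.70 and 8.81 CPM and fell by 2.24 (SE 0.27, adjusted p = 2.66e-07). OPT2 had 10.5, 10.01 and 7.25 antisense CPM against 25.8, 24.98 and 27.5 CPM, a fall of 1.49, beside its sense rise of 2.39. MGL2 fell by 1.68, YNL134C by 1.53, PTC6 by 1.52 and YGP1 by 1.49. The meiotic regulators NDT80 (-0.60) and RIM4 (-0.42) and the spore formation kinase gene SMK1 (-0.92) had antisense falls together with sense rises, although NDT80 and SMK1 overlap a gene on the other strand. They were not typical of the meiosis list, in which SPS1 (3.11) and SPR28 (2.89) rose in antisense, SPR28 beside its sense rise. Without any 1 library 8 to 9 members of that list rose in antisense and 1 to 3 fell. Against WT tagged 8 rose and 3 fell of 33. Over all genes tested against WT untagged 28.8% rose and 4.17% fell. Genes just outside the named falls and rises were HBT1 (-1.28) and BEM3 (3.99).

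The antisense rise was uneven over functions. Of 15 tested cell cycle genes 13 rose and 0 fell, with a median of 1.15, against 28.8% risen and a median of 0.37 over all genes. Without any 1 library 10 to 12 of the 15 rose, and against WT tagged 7 rose. CLB6 had 6.17, 6.21 and 6.29 antisense CPM against 1.35, 0.817 and 0.979 CPM and rose by 2.56 (SE 0.25), CLN1 rose by 1.87, and SWI4, the SBF transcription factor, by 1.45. For CLB6, CLN1 and SWI4 the sense transcript fell. The ergosterol list gave 13 rises and 1 fall of 23, with 7 rises without WT untagged replicate 2 and 7 against WT tagged. They included the sterol importer AUS1 (4.85, 5.41 and 4.59 CPM against 0.491, 0.584 and 0.612 CPM, a rise of 3.11) with HMG1 (2.23) and the sterol regulator UPC2 (1.85), and the sense transcripts of HMG1 and UPC2 fell.

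Other lists with rises were trehalose and glycogen, with 8 rises and 2 falls of 16 including the trehalase ATH1 (3.11) and the fall of GLC3 (-0.98), DNA damage, with 8 of 18 including REV3 (3.01), and the a-specific genes, with 4 of 6 including AXL1 (3.11) and BAR1 (2.46). Against WT tagged these lists had 5, 4 and 3 rises, while 676 of all 3741 genes rose. The 4 of 18 for DNA damage lay near that share. Over all genes tested against WT untagged 28.8% rose in antisense, and 38.1% of those with no overlapping gene, so a rise was common outside these lists too. The UME6 repressor of meiotic genes rose by 2.77 in antisense and the meiotic inducer IME1 by 1.65. Lists with few calls were proteasome, with 0 of 21, ribosome biogenesis, with 2 of 39, and glycolysis, with 0 of 11. The rises also differed by level. In the quintile of highest sense CPM per kb 14.6% of the genes with no overlapping gene rose, against 49.4% in the second lowest quintile. Without WT untagged replicate 3 those shares were 19.2% and 46.0%, but the median of the highest quintile moved from 0.113 to 1.31, above the 0.805 of the second lowest. The same library moved the antisense median of glycolysis from -1.51 to 1.26, of ribosome biogenesis from -0.197 to 1.14 and of the proteasome from -0.251 to 0.636. By length, 30.7% rose in the shortest quintile and 48.2% in the longest, with medians of 0.605 and 1.02, or 25.8% and 51.3% without that library. The second shortest quintile was the lowest, at 29.7% with a median of 0.427. Whether these shares follow the number of antisense reads that a gene collects was not tested. The gene found at the 3′ side made less difference, 39.2% for a convergent neighbour at 300 bp or more and 35.7% for a closer one.

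**Figure D5:**
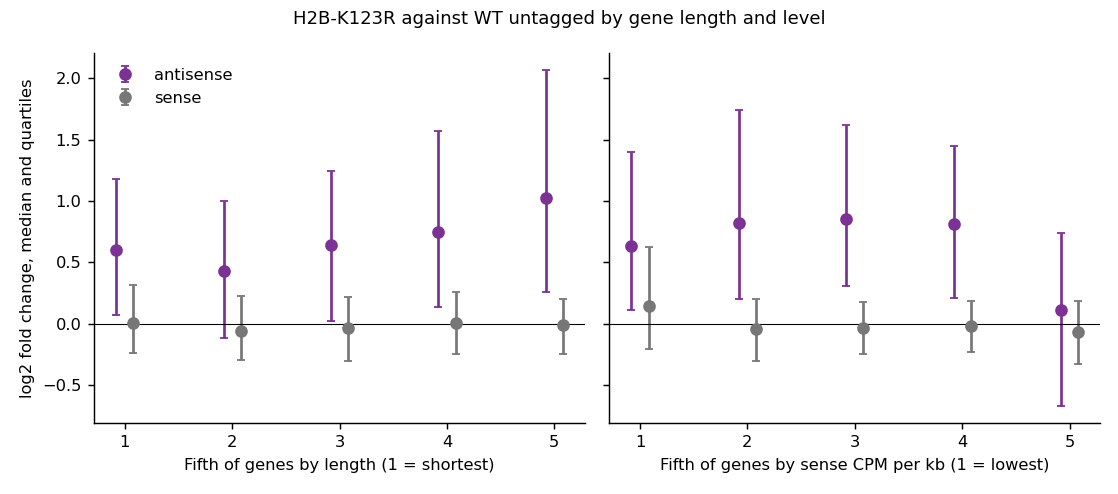
Median log2 fold change of H2B-K123R over WT untagged with quartiles (bars) for antisense counts of genes with no overlapping gene (purple) and for sense counts (grey), by quintiles of gene length (left) and of sense CPM per kb (right). The antisense median is 1.02 in the longest quintile and 0.113 in the most expressed quintile, a value that is 1.31 without WT untagged replicate 3, while sense medians stay near 0.

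Sense and antisense calls of the same gene overlapped only in part. Of 757 genes with no overlapping gene and tested on both strands that rose in antisense, 555 had no sense call, 112 fell and 90 rose, and their median sense change was -0.10. These are 14.8% fallen and 11.9% risen, against 15.5% and 16.7% of the 1159 genes with no antisense call. Of the 57 that fell in antisense 29 rose on the sense strand (50.9%) and 2 fell, with a median of 0.52. Across 1973 such genes Pearson's r between the 2 changes was -0.087, given as a description, as genes share libraries and are not replicates.

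rad6Δ untagged lacks the enzyme that places the mark, and it was compared with the same 3 H2B-K123R libraries to see where the 2 strains differ. Over all genes 609 of 5790 sense tests (10.5%) and 165 of 3741 antisense tests (4.41%) were called. Of the 20 genes with the largest sense changes against WT untagged 10 differed, 9 of them higher in H2B-K123R, and of the 12 antisense ones 1, OPT2 (-0.71). These genes were picked by their values in the same H2B-K123R libraries, so their shares cannot be set beside those over all genes. ARG1 reached a higher level in rad6Δ, so that H2B-K123R lay below it by 1.25 (adjusted p = 9.5e-08), and STL1 was higher in H2B-K123R by 2.67. Of 31 genes of the pheromone response 16 differed, 13 higher and 3 lower in H2B-K123R. H2B-K123R was above rad6Δ by 1.80 for MFA1, 1.60 for BAR1, 1.35 for STE2, 1.28 for SST2, 1.95 for FUS1 and 2.65 for PRM1, and 7 of 8 a-specific genes differed in that direction. MET2 (1.40), MET14 (1.26) and STR3 (1.29) were also higher in H2B-K123R. SPR28, SPO74, YNR064C and CDA1 did not pass the test between the 2 mutants, with differences of 0.34, 0.40, 0.11 and 0.40. Of 25 phosphate genes 12 differed and 10 of them were higher in H2B-K123R, PHO84 by 4.21 (adjusted p = 0.000249), with a mean of 4.01 CPM in rad6Δ.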

How the data were processed

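Per the submitters' processing notes, reads were aligned with STAR 2.7.5a to sacCer3 (R64) and counted with featureCounts, and DESeq2 is named. The authors deposited raw counts per gene for sense, antisense and unstranded reads and for K. lactis, 96 columns used here of the 4 tables. The replicates are biological replicates of 1 strain each. Of 6571 genes, 674 without an R64 locus tag held 0.133% of sense counts.

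Counts were fitted in R 4.3.3 with edgeR 4.0.16 (quasi-likelihood, robust, 8 group means over all 24 libraries, Benjamini-Hochberg adjusted p under 0.05). Genes were filtered by filterByExpr and then scaled by TMM factors of the sense table, and antisense counts used the sense totals and factors. DESeq2 1.42.0 was an alternative. Differences of library values used the exact permutation test of scipy 1.17.1. Near-identical copies were found with BLAST+ 2.17.0 at 90% identity over 50% of the length. Tested on simulated data with 2-fold changes, 90% of sense and 38.5% of antisense changes were recovered. Of the calls made there 8.2% were false on the sense strand, above the 5% aimed at, and 4.9% on the antisense strand. Intervals of ratios of counts cover counting error only.

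The gene lists and members were chosen with earlier results of these data known. Symbols were then brought to RefSeq forms, aliases or non-members (BOP3, HYM1, PTR1, UBC2) were dropped, and FLO8 had no match. Named genes are the 10 largest rises and falls among called sense genes whose higher group averaged 10 CPM or more, the 6 largest antisense ones at 2 CPM without overlap, in both cases with no overlap between libraries, and from each list the 3 largest called rises and falls (2 in antisense), with the H2B and marker genes. Other genes, and the windows and motifs shown, were chosen after their values were seen.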

Additional observations from a re-analysis of the deposited data

How the results depend on the processing

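Sense calls numbered 1521, and 1390 to 1784 under the other settings that kept all libraries, or 1093 to 1294 with any 1 library left out. Antisense calls numbered 1235, from 884 (WT tagged as control) to 1401 (no filter), or 972 to 1124 with any 1 library left out. K. lactis calls numbered 3, but 30 with only the 6 libraries, 6 with a replicate block, and 1 to 3 with any 1 library left out. With a replicate block there were 1591 sense and 1334 antisense calls. Same-numbered libraries correlated at 0.248, -0.11 and 0.326, and differently numbered ones at -0.362 to 0.313. As these values overlap and their signs are mixed, the correlations alone cannot decide whether the numbers pair the samples. The number was not arbitrary for the antisense share over the most expressed genes. That share was highest in replicate 3 of every group. The main fit did not use the replicate number, and the fit with a replicate block did. Of 226 results for named genes, 8 reversed, all with WT tagged as control, where log2 values were 1.13 for PHO12, 1.67 for PHO11, 1.75 for PHO84, 1.19 for PHO5, 0.58 for VTC3, 0.20 for CHA1, -0.0127 for LYS2 and, in antisense, -0.40 for RPL42B. Their cause was not tested. A further 66 lost their call there, 22 with K. lactis scaling, and 26 to 47 with a library left out. WT tagged, the 50% overlap rule, the first filter order, the antisense factors without a filter and the quintiles with a library left out were added after seeing the data. Antisense totals were 480446 to 538578 counts a library.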
